A study of Mus musculus with 24 samples.

Results

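The main effect of abemaciclib, an inhibitor of the kinases CDK4 and CDK6, was measured in mouse sciatic nerve by comparing 12 libraries from drug-exposed nerves with 12 libraries from nerves without the drug. These are all 24 libraries of the series, and they were chosen by the treatment label alone. The 12 libraries with abemaciclib were 6 from nerves given abemaciclib by itself and 6 given abemaciclib together with the ERK1/2 inhibitor LY3214996 (combination). The 12 without it were 6 given vehicle and 6 given LY3214996 by itself. Each treatment lasted 1 week. All 4 groups carried the genotype Nf1 flox/flox PostnCre+, so the comparison is between treated tumor models, with no wild-type nerve. The labels give the tumor stage as plexiform neurofibroma, a benign tumor of the nerve sheath, and give no age. Nf1 encodes neurofibromin, which switches RAS off. Cre driven by Postn is used to delete Nf1 in the Schwann cell lineage, and cells in which Cre is not active keep intact floxed alleles. RNA came from whole nerve, so fewer cells of a type and less RNA per cell cannot be told apart. The labels do not say that the libraries came from separate animals, and p-values therefore describe the spread between these samples.

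CDK4 and CDK6, bound to D-type cyclins, phosphorylate the retinoblastoma protein RB. Phosphorylated RB releases E2F transcription factors, which switch on genes of DNA replication, and genes of G2 and mitosis follow later through the DREAM and MYB-MuvB complexes. The circadian clock is a feedback loop in which ARNTL (BMAL1) and CLOCK switch on the Per and Cry repressors, the REV-ERB receptors and the output factors DBP, TEF and CIART through E-box elements in DNA. The glucocorticoid receptor is activated by adrenal corticosteroids and by synthetic ligands, and switches on Fkbp5, Tsc22d3, Per1 and many other genes in most tissues.

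Total counts per library ran from 5391543 to 42321550, with medians of 17240937 with abemaciclib and 17122097 without it. Markers of Schwann cells, which define the nerve, were high in all 24 libraries: the mean level of 17 myelinating Schwann cell genes lay between 7.19 and 9.69 log2 CPM, where CPM are counts scaled to equal library size. Libraries differed in their content. The mean level of 14 neuron and sensory ganglion genes was low in 6 libraries, namely vehicle 1 and 5, abemaciclib 3 and 5 and combination 3 and 5. Of these, 4 carried abemaciclib and 2 did not. The level was 1.03 to 5.17 log2 CPM in these 6 and 6.70 to 9.03 in the others, which include all 6 given LY3214996 alone. Most libraries of this nerve series thus held abundant neuron and sensory ganglion transcripts, and the labels do not say why. Liver transcripts were present in LY3214996 3 and abemaciclib 1 and 3, where albumin (Alb) stood at 4511, 3235 and 4399 CPM, against at most 1.67 CPM in the other libraries. Skeletal muscle genes were highest in abemaciclib 5, and both Xist and transcripts of the Y chromosome were counted in abemaciclib 2 (765 and 219 CPM) and, with fewer Y-linked ones, in LY3214996 3 (876 and 16.1 CPM) and abemaciclib 3 (2947 and 16.1 CPM). Nf1 ran from 290 to 447 CPM without abemaciclib and from 305 to 388 CPM with it (log2 fold change −0.15 ± 0.07 SE, edgeR adjusted p = 0.614). Since every group had the same genotype, this level does not test the deletion.

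Across 15385 tested genes, 0 (0%) passed an adjusted p of 0.05 in edgeR's quasi-likelihood model, which fitted abemaciclib and LY3214996 as additive terms. The smallest adjusted p was 0.269. At an unadjusted p under 0.05, 727 genes (4.73%) were higher with abemaciclib and 433 (2.81%) were lower. DESeq2 with the same terms called 18 genes (0.117%), of which 13 (0.0845%) rose and 5 (0.0325%) fell, and limma-voom called 0, with 1612 genes at an unadjusted p under 0.05. In the edgeR model with a mean per group, abemaciclib without LY3214996 gave 0 genes at an adjusted p of 0.05, with 340 (2.21%) higher and 140 (0.91%) lower at an unadjusted p under 0.05. Abemaciclib on top of LY3214996 gave 0 as well, with 881 (5.73%) higher and 556 (3.61%) lower. DESeq2 called 30 genes without LY3214996, 35 on top of it and 51 for the difference between these effects. Fold changes below are log2 differences, libraries with abemaciclib minus libraries without, with the SE of the edgeR fit. The members of a gene list were read against these background shares, and against a median log2 fold change of −0.01 over all tested genes. No member of any list passed the adjusted threshold in edgeR, so members are described as higher or lower.

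**Figure D1:**
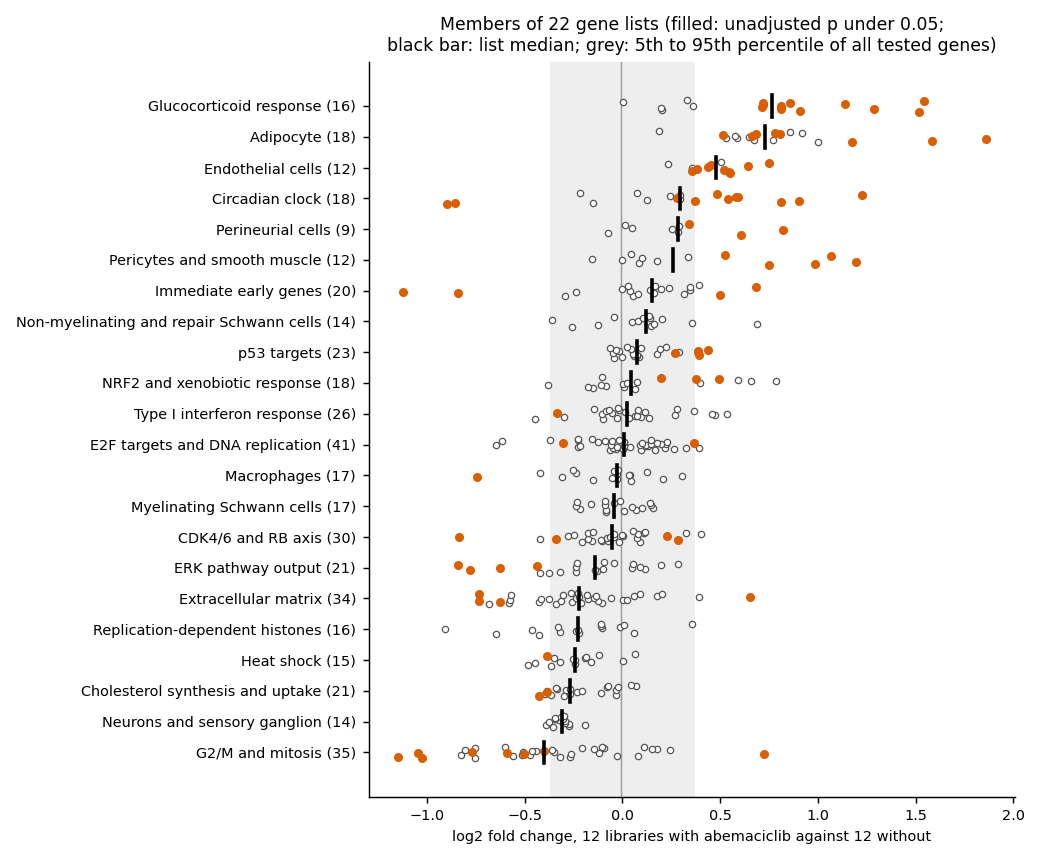
Log2 fold change of each tested member of 22 gene lists, libraries with abemaciclib against libraries without it, 12 against 12. Filled points have an unadjusted p under 0.05, black bars are list medians, and the grey band spans the 5th to the 95th percentile of all tested genes, −0.37 to 0.36. The glucocorticoid, adipocyte and endothelial lists lie to the right with medians of 0.76, 0.73 and 0.48, and the G2/M and mitosis list lies to the left at −0.40.

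Genes of the circadian clock divided by their place in the loop. The Per and Cry repressors and the proline and acidic amino acid-rich transcription factors were higher with abemaciclib, and the activators Arntl and Npas2 were lower. Among 18 clock genes, all of which were tested, 14 were higher and 4 lower, with a median log2 fold change of 0.29. At an unadjusted p under 0.05, 9 were higher and 2 lower, where the background shares were 4.73% and 2.81%. Abemaciclib had the same sign in the libraries without LY3214996 and in those with it for 18 of 18 clock genes, and these sets share no library. Over all tested genes the sign was the same for 56.0%. The effects in the 2 sets had a Pearson correlation of −0.297 across the 15385 genes, which are not independent replicates. Liver transcripts, present in abemaciclib 1 and 3 and LY3214996 3, enter this correlation with opposite signs. The 4 tested liver genes had median effects of 7.84 without LY3214996 and −7.75 with it. The weight of such genes in the correlation was not tested.

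Stretches before a transcription start of 3 clock genes show the element through which ARNTL and CLOCK act. The sequences are from RefSeq on GRCm38.p6, read on the strand of the gene from 5′ to 3′. Positions count back from the transcription start of the window. Per1 and Tef had 2 windows each, and the window with the most marked elements was printed. Both of these stretches lie inside the gene span (chr11:69095108-69109965 and chr15:81802673-81826863), before an internal start. Capitals mark E-boxes (CACGTG) and, in Per1, also a D-box (TTATGNAA, the element of DBP, TEF and HLF). The Ciart stretch is chr3:95882258-95882408 on the minus strand and holds E-boxes that begin at −116, −58 and −44. That of Per1 is chr11:69098769-69098947 on the plus strand, with an E-box at −166 and a D-box at −24. That of Tef is chr15:81811234-81811413 on the plus strand, with an E-box at −138.
Ciart: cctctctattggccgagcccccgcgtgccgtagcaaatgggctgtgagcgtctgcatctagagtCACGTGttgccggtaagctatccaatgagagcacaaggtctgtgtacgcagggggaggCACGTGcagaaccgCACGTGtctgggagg
Per1: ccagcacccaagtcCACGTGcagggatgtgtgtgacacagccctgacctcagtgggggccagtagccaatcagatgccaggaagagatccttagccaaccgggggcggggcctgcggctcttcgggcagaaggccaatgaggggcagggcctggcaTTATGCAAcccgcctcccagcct
Tef: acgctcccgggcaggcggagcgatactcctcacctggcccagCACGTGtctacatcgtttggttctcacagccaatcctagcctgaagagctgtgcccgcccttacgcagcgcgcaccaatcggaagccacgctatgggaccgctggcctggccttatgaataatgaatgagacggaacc

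Searched on both strands over 250 bases before the start, an E-box was present in 5 of 15 clock genes with a RefSeq window (33.3%), namely Per1, Cry1, Tef, Ciart and Bhlhe41. It was present in 1082 of 11475 tested genes with a window (9.43%). The D-box was present in 2 of the 15 (13.3%) and in 2.47% of the tested genes. The glucocorticoid response list described below, which shares Per1, held the E-box in 5 of 14 windows (35.7%). These are matches of letters, and binding was not measured.

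Tef, a D-box-binding activator, had the smallest p of the clock genes. It ran from 55.0 to 139 CPM without abemaciclib, with a median of 102 CPM, and from 102 to 235 CPM with it, with a median of 150 CPM (log2 fold change 0.58 ± 0.14). The adjusted p was 0.360 in edgeR and 0.0365 in DESeq2. Of the 12 libraries with abemaciclib, 8 lay above every library without it, and the ranges overlapped between 102 and 139 CPM. Ciart, a repressor of the loop with low expression, ran from 1.03 to 6.39 CPM with a median of 1.73 CPM without the drug, and from 2.02 to 8.71 CPM with a median of 5.02 CPM with it. Its log2 fold change was 1.23 ± 0.30 (edgeR adjusted p = 0.360, DESeq2 adjusted p = 0.0379), and the groups overlapped. On the log2 CPM scale, every library with abemaciclib lay above the mean of the 6 matched libraries without it for both genes. Matched means equal LY3214996 exposure, and counts against a matched mean below are on the same log2 scale.

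The Per genes encode the repressors that close the loop. Per2 ran from 15.5 to 70.3 CPM without abemaciclib (median 29.4) and from 40.2 to 94.97 CPM with it (median 63.7), a log2 fold change of 0.91 ± 0.24 (edgeR adjusted p = 0.360). All 12 libraries with abemaciclib were above the matched mean of log2 CPM, and 7 libraries without it lay below all 12. Per1 stood at a median of 130 CPM without and 217 CPM with abemaciclib, with ranges of 49.5 to 280 and 103 to 366 CPM that overlapped over most of their length. Per3 differed less, at 0.37 ± 0.16. Cry2 was higher by 0.54 ± 0.15 on the log2 scale, and its partner Cry1 differed by 0.12 with an interval of −0.12 to 0.37.

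The activators were lower. Arntl (chr7:113178471-113314126 on GRCm38.p6) ran from 5.46 to 57.3 CPM without abemaciclib, with a median of 25.1 CPM, and from 4.03 to 18.6 CPM with it, with a median of 16.2 CPM. Of the libraries without the drug, 9 of 12 lay above the highest library with it, while the other 3 overlapped with the drug-exposed range (log2 fold change −0.90 ± 0.32, edgeR adjusted p = 0.533). Npas2, which can replace CLOCK as partner of ARNTL, had a median of 3.65 CPM without and 2.01 CPM with abemaciclib (−0.86 ± 0.27). Clock itself differed by −0.15 ± 0.09. Among output and stabilising factors, Bhlhe41 (0.48 ± 0.12), Dbp (0.59 ± 0.24) and Nr1d2 (0.28 ± 0.10) were higher at an unadjusted p under 0.05, and Nr1d1 (0.29 ± 0.16), Hlf (0.24 ± 0.13), Bhlhe40 (0.29 ± 0.16) and Nfil3 (−0.22 ± 0.25) were not past it.

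Averaged over the 18 clock genes, the level ran from 4.69 to 5.36 log2 CPM without abemaciclib (median 5.13) and from 5.13 to 5.66 with it (median 5.37). Of 12 libraries with the drug, 7 lay above all without it. Without the 6 libraries low in neuron genes, 13 of 18 clock genes were higher and the median was 0.14, with 5 higher and 1 lower at an unadjusted p under 0.05 (background 1.45% and 1.81%). The labels give no hour of collection.

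Genes induced by glucocorticoids were higher with abemaciclib as a group. All 16 listed genes were tested, 16 had a positive log2 fold change (15 under RLE scaling, where Errfi1 turned from 0.00 to below 0), and the median was 0.76. At an unadjusted p under 0.05, 11 of 16 were higher and 0 lower (background 4.73% and 2.81%). Per1 belongs to this list and to the clock list. In the libraries without LY3214996 the median was 0.42, in those with it 1.11, and 14 of 16 were higher in both.

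**Figure D2:**
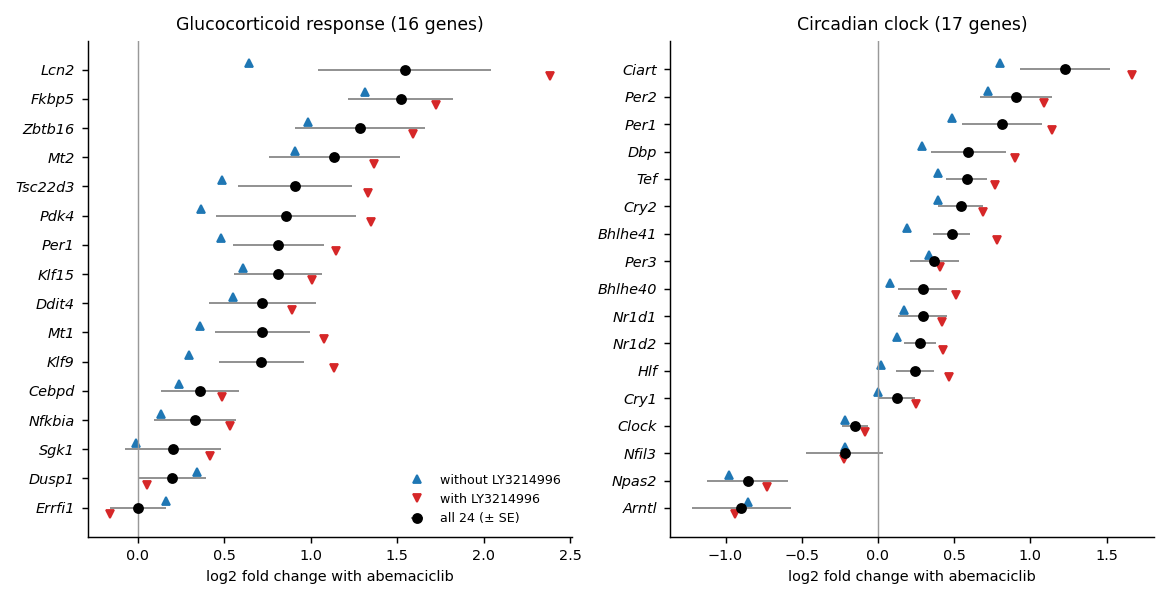
Log2 fold change with abemaciclib of the 16 glucocorticoid response genes (left) and 17 of the 18 clock genes (right). Black points with SE are from all 24 libraries, and triangles give the comparison without LY3214996 (blue) and with it (red). Fkbp5, Lcn2 and Zbtb16 have the highest values on the left, and Arntl and Npas2 the lowest on the right.

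Fkbp5 (chr17:28398753-28486149, coordinates of GRCm38.p6 here and below) encodes a chaperone partner that restrains the glucocorticoid receptor. It ran from 24.4 to 110 CPM without abemaciclib (median 42.6) and from 38.0 to 241 CPM with it (median 135). Among the 12 libraries with abemaciclib, 9 lay above every library without it, and abemaciclib 4 and 6 were the lowest at 38.0 and 61.2 CPM. The log2 fold change was 1.52 ± 0.30, with an adjusted p of 0.269 in edgeR and 0.00205 in DESeq2, which called it as risen. Zbtb16, which encodes the zinc finger factor PLZF, ran from 9.41 to 79.2 CPM without and from 14.9 to 196 CPM with abemaciclib, with medians of 21.5 and 68.7 CPM (1.29 ± 0.38, edgeR adjusted p = 0.406). Abemaciclib 4 was again the lowest of the drug-exposed libraries. Tsc22d3, the anti-inflammatory mediator GILZ, had medians of 220 and 467 CPM, and its ranges overlapped (0.91 ± 0.33).

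Other members act in metabolism and metal binding. The transcription factors Klf15 and Klf9 were higher by 0.81 ± 0.25 and 0.71 ± 0.24. The metallothioneins Mt1 and Mt2, which bind zinc and copper, were higher by 0.72 ± 0.27 and 1.14 ± 0.38, with median levels of 181 and 94.1 CPM without abemaciclib and 312 and 275 CPM with it. Their transcripts are alike in sequence, and the rule by which reads were divided between them is not known here. Lcn2, an iron-carrier-binding protein, was low in most libraries and reached 28.8 CPM in 1 library with abemaciclib (1.54 ± 0.50). Ddit4, an inhibitor of mTORC1, and Pdk4, which holds back pyruvate oxidation, were higher by 0.72 ± 0.31 and 0.86 ± 0.41. The members not past an unadjusted p of 0.05 were Cebpd (0.36), Nfkbia (0.33), Dusp1 (0.20), Sgk1 (0.20) and Errfi1 (0.00, interval −0.33 to 0.33).

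**Figure D3:**
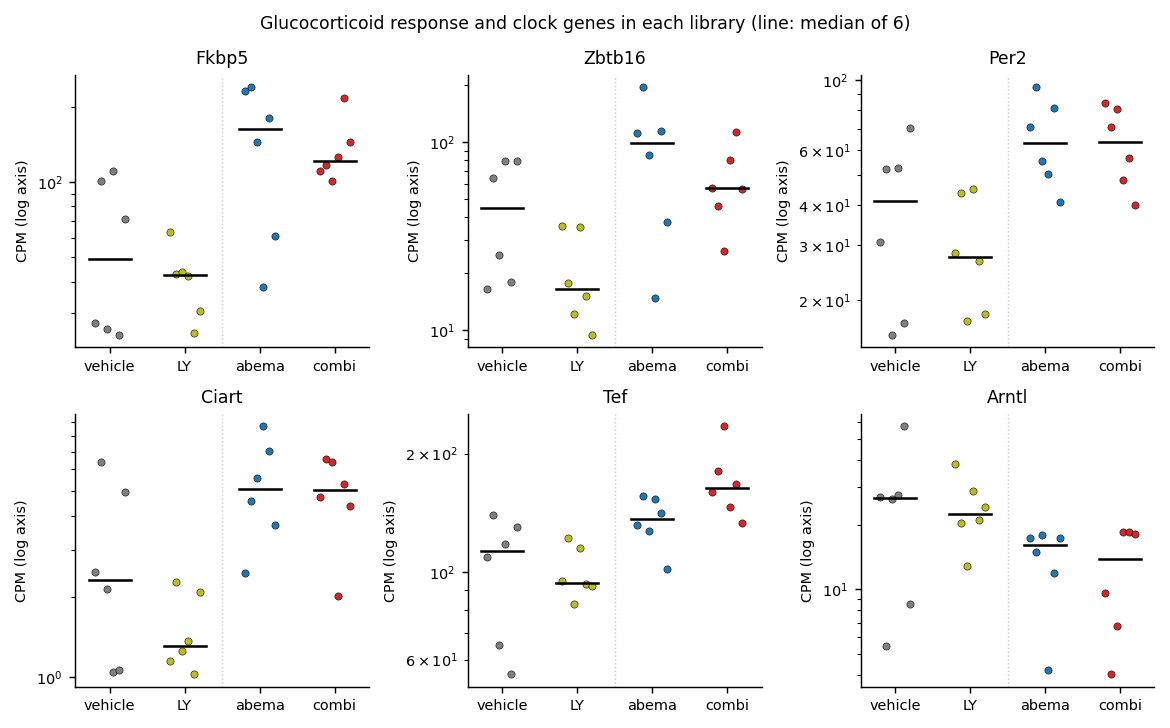
CPM on a log axis of Fkbp5, Zbtb16, Per2, Ciart, Tef and Arntl in each of the 24 libraries, by group (LY, LY3214996; abema, abemaciclib; combi, combination). Points are libraries and lines are medians of 6. The drug-exposed groups lie to the right of the dotted line, higher in Tef and Per2 and lower in Arntl.

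The mean level of the glucocorticoid list ran from 5.12 to 7.25 log2 CPM without abemaciclib (median 5.87) and from 5.38 to 7.61 with it (median 6.80), and 1 library with the drug lay above all without it. Among samples whose title numbers begin with 4, the level was 5.46 and 6.03 in vehicle and 6.80 to 7.24 with abemaciclib alone. For titles beginning with 5, these groups lay at 5.42 to 7.25 and 5.38 to 6.96, with both ends lower with the drug. LY3214996 alone and the combination lay at 5.12 to 6.32 and 5.96 to 6.32 for titles beginning with 4. For titles beginning with 5 they lay at 5.16 and 5.36 and at 6.81 to 7.61. Leaving out each library in turn gave medians of the fold changes between 0.63 (without combination 5) and 0.93 (without vehicle 4). Without the 6 libraries low in neuron genes, 14 of 16 were higher, the median was 0.59, and 4 were higher at an unadjusted p under 0.05 (background 1.45%). A consensus palindrome of the glucocorticoid response element was present in 2 of 14 windows of listed genes (14.3%) and in 0.375% of the windows of tested genes.

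Genes of G2 and mitosis were lower with abemaciclib, while genes of DNA replication showed no common direction. Of 36 listed G2/M and mitosis genes 35 were tested. Of these, 29 were lower and 6 higher, with a median of −0.40. At an unadjusted p under 0.05, 7 were lower (background 2.81%) and 1 was higher. The median was −0.26 without LY3214996 and −0.37 with it, and 25 of 35 were lower in both. The difference between these effects had an unadjusted p under 0.05 for 4 of 35 (3.69% of all tested genes). Among 41 tested E2F target and replication genes, 23 were higher and 18 lower, with a median of 0.01. One member in each direction, Rfc5 (0.37 ± 0.14) and Rfc3 (−0.30 ± 0.12), both subunits of the clamp loader, passed an unadjusted p of 0.05. The MCM helicase subunit Mcm5 differed by 0.00 (interval −0.30 to 0.30), and Rrm2, a subunit of ribonucleotide reductase, by −0.22 ± 0.24.

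The promoters of Mki67 and Kif11 are shown because late cell cycle genes often carry a CHR element (TTTGAA), the contact of the MuvB core, near CCAAT boxes. Capitals mark these letters, on either strand (TTCAAA and ATTGG on the other). That of Mki67 is chr7:135716451-135716559 on the minus strand, with CHR matches at −116 and −98 and CCAAT boxes at −166 and −141. That of Kif11 is chr19:37376202-37376381 on the plus strand, with a CHR match at −19 and a CCAAT box at −45.
Mki67: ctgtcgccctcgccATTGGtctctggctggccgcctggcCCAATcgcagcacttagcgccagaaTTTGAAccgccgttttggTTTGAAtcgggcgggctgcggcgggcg
Kif11: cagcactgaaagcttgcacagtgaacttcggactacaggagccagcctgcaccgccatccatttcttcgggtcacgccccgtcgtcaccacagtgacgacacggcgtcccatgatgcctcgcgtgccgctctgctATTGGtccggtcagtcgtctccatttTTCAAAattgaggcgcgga

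A CHR match was present in 10 of 29 windows of G2/M and mitosis genes (34.5%) and in 12.8% of the windows of tested genes. For the CCAAT box the shares were 22 of 29 (75.9%) and 39.8%. A strict E2F site (TTTCCCGC) was present in 4 of 35 windows of the E2F list (11.4%), against 1.81%.

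Mki67, which coats mitotic chromosomes and marks cycling cells, ran from 3.24 to 21.6 CPM without abemaciclib (median 12.3) and from 1.01 to 19.98 CPM with it (median 4.27). The ranges overlapped, 3 libraries with the drug lay below all without it, and 10 of 12 were below the matched mean of log2 CPM (−1.03 ± 0.38, edgeR adjusted p = 0.539). Kif11, the motor that separates spindle poles, had medians of 3.23 CPM without and 2.18 CPM with abemaciclib (−0.59 ± 0.26). The kinetochore protein Cenpf (−1.05 ± 0.42), the spindle assembly factor Tpx2 (−0.40 ± 0.16), the checkpoint kinase Ttk (−0.50 ± 0.22) and the kinesin Kif20a (−0.77 ± 0.35) were also lower at an unadjusted p under 0.05. Ccnb1, the mitotic cyclin, was at or below 2.86 CPM in all libraries (−1.15 ± 0.51). Bub1b, a checkpoint kinase, was the exception, at medians of 3.53 CPM without and 5.28 CPM with the drug (0.73 ± 0.33). Without and with LY3214996 the effects were −0.55 and −1.52 for Mki67, −0.27 and −2.35 for Ccnb1, and 0.02 and 1.43 for Bub1b. For Ttk the order was the other way, at −0.62 and −0.39. Top2a (−0.76 ± 0.44) and Cdk1 (−0.56 ± 0.44) had intervals that include 0.

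Averaged over the mitosis list, the level had a median of 1.20 log2 CPM without and 0.67 with abemaciclib, with ranges of 0.305 to 1.96 and 0.121 to 1.77. Most members had few reads, and the count at an unadjusted p under 0.05 moved with single libraries. It was 2 of 35 without vehicle 3, the shallowest library, and 12 at most. Among samples whose title numbers begin with 4 the median was −0.16 and 0 members were lower at an unadjusted p under 0.05 (background 1.04%), and among those whose numbers begin with 5 it was −0.58 and 6 were (1.55%). With the mean level of the adipocyte list as a covariate the median was −0.22 and 1 member was lower at an unadjusted p under 0.05 (background 1.57%).

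Transcripts of the kinases that the drug inhibits, and of their closest partners, did not pass an unadjusted p of 0.05. Cdk4 ran from 37.7 to 56.0 CPM without abemaciclib and from 33.7 to 58.4 CPM with it (−0.02 ± 0.09, interval −0.19 to 0.16). Cdk6 differed by −0.21 ± 0.21, Ccnd1 by 0.09 ± 0.26, Ccnd2 by −0.08 ± 0.27 and Ccnd3 by −0.15 ± 0.19. Rb1 differed by −0.11 ± 0.06, Ccne1 by −0.28 ± 0.27, Ccne2 by −0.25 ± 0.18, Cdkn1a, which encodes p21, by −0.04 ± 0.16, and Cdkn2c, which encodes p18, by 0.33 ± 0.19. In the list of 30 CDK4/6 and RB axis genes, 11 were higher and 19 lower, with a median of −0.05. The E2F genes E2f8 (−0.84 ± 0.28) and E2f3 (−0.34 ± 0.12) were lower at an unadjusted p under 0.05, while the RB relative Rbl2 (0.28 ± 0.12) and the E2F partner Tfdp2 (0.23 ± 0.09) were higher. E2f1 differed by −0.42 ± 0.23. Of 16 tested replication-dependent histone genes 13 were lower, with a median of −0.22 and 0 past an unadjusted p of 0.05. Histone genes share sequence, so their separate values are uncertain. Among 23 p53 targets 17 were higher with a median of 0.07, and 5 passed an unadjusted p of 0.05, all higher (background 4.73%). These were Trp53inp1 (0.39 ± 0.14), Sesn1 (0.39 ± 0.15), Btg2 (0.39 ± 0.16), Phlda3 (0.27 ± 0.12) and Fas (0.44 ± 0.20), which act in growth arrest or cell death.

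**Figure D4:**
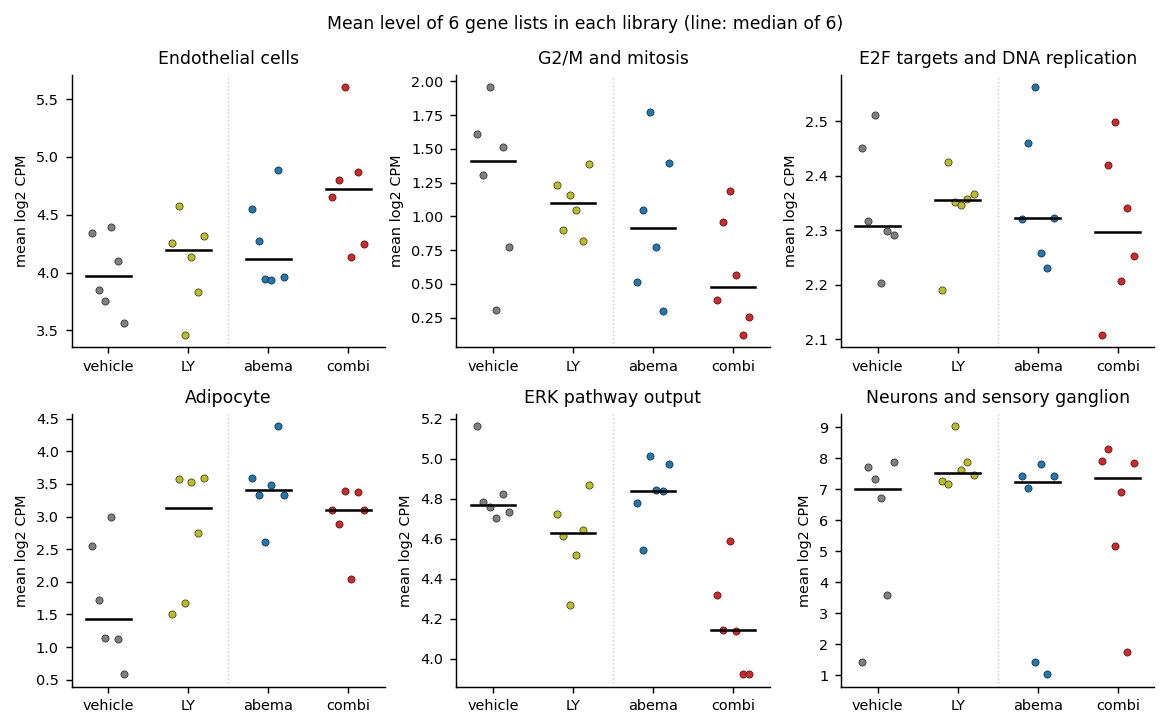
Mean log2 CPM of 6 gene lists in each of the 24 libraries, by group (LY, LY3214996; abema, abemaciclib; combi, combination). Points are libraries and lines are medians of 6. Groups with abemaciclib lie to the right of the dotted line, and their G2/M lines are lower. Over all libraries, endothelial levels have medians of 4.11 without and 4.41 with abemaciclib, and E2F levels have medians of 2.35 and 2.32. The endothelial line of abemaciclib alone lies slightly below that of LY3214996 alone, and that of the combination is the highest. The 6 libraries low in neuron genes stand out in the last panel.

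Endothelial genes were higher with abemaciclib. All 12 listed genes were tested, 12 had a positive log2 fold change, and the median was 0.48. At an unadjusted p under 0.05, 9 were higher (background 4.73%). The sign was positive for 11 of 12 both without and with LY3214996, with medians of 0.27 and 0.67. Vwf (chr6:125552948-125686679), the clotting factor stored by endothelial cells, ran from 31.8 to 88.4 CPM without the drug (median 64.9) and from 50.5 to 229 CPM with it (median 106), and 8 of 12 libraries lay above all without it (0.75 ± 0.22, edgeR adjusted p = 0.395). Esam, an adhesion molecule of endothelial junctions, ran from 7.86 to 15.7 CPM (median 11.3) and from 9.42 to 40.4 CPM (median 16.2), with 6 libraries above all without the drug (0.64 ± 0.18). The other members past an unadjusted p of 0.05 were Cdh5 (0.54), Tie1 (0.52), Pecam1 (0.55), Egfl7 (0.45), Emcn (0.44), Kdr (0.38) and Tek (0.36). Flt1 (0.36), Plvap (0.50) and Cldn5 (0.23) were not past it.

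The endothelial values moved with several library features. Without combination 3, a library low in neuron genes, the median was 0.35 and 3 of 12 passed an unadjusted p of 0.05, where 654 of 15512 tested genes were higher. Without all 6 such libraries it was 0.29 and 2 passed (background 1.45%), with 12 of 12 still positive. With the adipocyte level as a covariate it was 0.24, with 11 of 12 positive and 2 past the threshold (background 1.52%). The neuron list itself was lower in 14 of 14 members, with a median of −0.31, and its mean level ran from 1.43 to 9.03 log2 CPM without abemaciclib and from 1.03 to 8.30 with it. With that level as a covariate the endothelial median was 0.39, and 6 of 12 passed an unadjusted p of 0.05 (background 3.34%).

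Markers of other cells around vessels and fascicles had lower medians. Among 12 pericyte and smooth muscle genes 10 were higher, with a median of 0.26, and 5 passed an unadjusted p of 0.05 (background 4.73%). These were the contractile genes Myh11 (0.99 ± 0.33), Cnn1 (1.19 ± 0.51), Acta2 (0.75 ± 0.33) and Des (1.07 ± 0.42), and the mural cell receptor Notch3 (0.52 ± 0.19). Myh11 reached 97.5 CPM in 1 library with abemaciclib, against a median of 15.3 CPM. The list's median was 0.15 without abemaciclib 5, the library highest in skeletal muscle genes, and 0.06 without the 6 libraries low in neuron genes. Skeletal muscle genes were higher in 15 of 16, with a median of 1.80 that was 0.25 without abemaciclib 5. With the skeletal muscle level as a covariate, 574 of 15385 tested genes were higher and 498 lower at an unadjusted p under 0.05. The values of the smooth muscle list in that fit are not given here. Among 9 tested perineurial genes 8 were higher, with a median of 0.28. Slc2a1, the glucose transporter GLUT1 of the blood-nerve barrier, ran from 52.7 to 111 CPM without the drug (median 74.8) and from 65.5 to 176 CPM with it (median 112), with 6 libraries above all without it (0.60 ± 0.15, edgeR adjusted p = 0.360). Msln (0.82 ± 0.39) and Ntn4 (0.34 ± 0.16) were the other 2 past an unadjusted p of 0.05 (background 4.73%). Without and with LY3214996 the effects were 0.53 and 0.68 for Slc2a1, 0.92 and 0.73 for Msln, and 0.02 and 0.66 for Ntn4. The efflux pumps Abcb1a (0.38 ± 0.16), Abcb1b (0.49 ± 0.19) and Abcg2 (0.20 ± 0.08) were higher too, and the first pair are near copies whose reads may be split. Their effects without and with LY3214996 were 0.07 and 0.68 for Abcb1a, 0.10 and 0.88 for Abcb1b, and 0.12 and 0.27 for Abcg2.

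Schwann cell and macrophage lists had medians close to that of all genes. Myelinating Schwann cell genes had a median of −0.04 with 7 of 17 higher, non-myelinating and repair genes 0.12 with 10 of 14, and genes of all Schwann cells 0.09 with 6 of 10. In these 3 lists 0 members passed an unadjusted p of 0.05. Macrophage genes had a median of −0.03, with 11 of 17 lower, and Folr2, a receptor of resident macrophages, was lower by 0.74 ± 0.30. It was the 1 macrophage gene of 17 past an unadjusted p of 0.05 (background 2.81% lower).

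Lipid and ERK output genes had unequal values in the libraries without LY3214996 and those with it, though in edgeR no gene's difference passed the adjusted threshold with all libraries included. Adipocyte genes were higher with abemaciclib in 18 of 18, with a median of 0.73 and 8 past an unadjusted p of 0.05 (background 4.73%). The median was 1.66 without LY3214996 and −0.08 with it. The difference between these effects had an unadjusted p under 0.05 for 11 of 18 (3.69% of all tested genes), and 0 passed the adjusted threshold in edgeR (0 of 15385, smallest adjusted p = 0.160). The mean level of the list was 1.68 ± 0.93 log2 CPM in vehicle (SD, 6 libraries), 2.77 ± 0.97 with LY3214996, 3.45 ± 0.57 with abemaciclib and 2.98 ± 0.50 with the combination. The vehicle group had the lowest mean, and the ranges of the 4 groups overlapped. For this list the average over both sets lies between 2 unlike values.

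Dgat2 (chr7:99153663-99182713), which makes triglycerides, stood at 6.11 ± 2.98 CPM in vehicle, 13.2 ± 4.19 with LY3214996, 17.8 ± 1.79 with abemaciclib and 11.9 ± 2.49 with the combination (SD, 6 libraries each). The effect of abemaciclib was 1.53 without LY3214996 and −0.16 with it (p of the difference 9.7e-05, edgeR adjusted p = 0.222). Plin1, which coats fat droplets, had effects of 2.51 and −0.08 (adjusted p of the difference 0.944), and Thrsp, a regulator of fat synthesis, 1.87 and −0.53 (0.222). A few members were higher in both sets. Pnpla2, the first lipase of fat breakdown, was higher by 0.46 and 0.57, in 12 of 12 libraries against the matched mean of log2 CPM. Slc2a4, the insulin-regulated glucose transporter, was higher by 0.32 and 1.24, also in 12 of 12. Lipe, the hormone-sensitive lipase, ran from 6.79 to 22.7 CPM without abemaciclib and from 13.1 to 40.4 CPM with it (0.66 ± 0.20). Without the 6 libraries low in neuron genes 18 of 18 stayed positive with a median of 0.56 and 0 past an unadjusted p of 0.05 (background 1.45%).

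**Figure D5:**
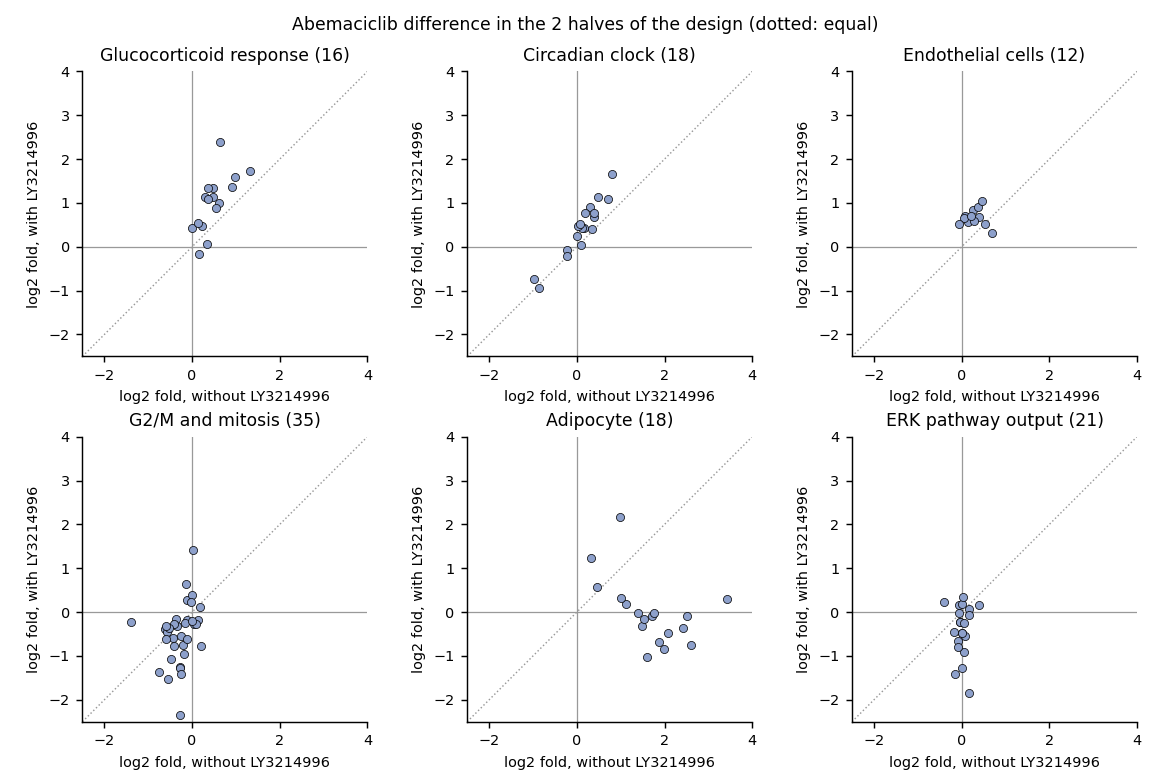
Log2 fold change of abemaciclib without LY3214996 (horizontal) against that with it (vertical), for the members of 6 lists. The 4 groups of 6 libraries enter once each, and the dotted line marks equal values. Clock and glucocorticoid genes lie on the same side of 0 on both axes for 18 of 18 and 14 of 16 members, adipocyte genes spread along the horizontal axis, and ERK output genes along the vertical one.

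ERK output genes had a median log2 fold change with abemaciclib of 0.00 without LY3214996 and −0.24 with it. The difference between these effects had an unadjusted p under 0.05 for 4 of 21 (3.69% of all tested genes). Of 21 tested members 15 were lower over all libraries, with a median of −0.14. At an unadjusted p under 0.05, 4 were lower (background 2.81%) and 0 higher. With 1 library left out, 2 to 5 were lower, where all tested genes gave 261 (without LY3214996 5) to 540 (without vehicle 4). The list median was −0.10 without abemaciclib 2. Etv4, an ETS factor downstream of ERK, stood at 18.6 ± 5.57 CPM in vehicle, 14.8 ± 4.36 with LY3214996, 18.6 ± 4.22 with abemaciclib and 6.14 ± 2.01 with the combination. The difference between its effects had an edgeR adjusted p of 0.409. Spry4, a feedback inhibitor of receptor signalling, had effects of −0.16 and −1.40 (adjusted p of the difference 0.988), and Egr1, an immediate early factor, 0.17 and −1.85 (0.846). Phlda1 was lower by 0.44 ± 0.20 over all libraries, and the ERK phosphatase gene Dusp6 by 0.24 ± 0.14. Egr3, another immediate early factor, ran from 11.7 to 48.6 CPM without abemaciclib and from 1.58 to 38.5 CPM with it (−1.12 ± 0.32), and Atf3, a stress-induced factor, was higher by 0.68 ± 0.20. In edgeR 0 of the differences passed the adjusted threshold in the ERK list, as in the adipocyte list.

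Cholesterol genes had a median of −0.27, with 19 of 21 lower, of 0.02 without LY3214996 and of −0.58 with it. Hmgcs1 and Cyp51, enzymes of the synthesis pathway, were the members past an unadjusted p of 0.05, at −0.43 ± 0.20 and −0.39 ± 0.18 (background 2.81% lower). Leaving out 1 library gave a list median between −0.31 (without vehicle 4) and −0.16 (without combination 3), and 0 to 8 members lower at that threshold. Over all tested genes, leaving out 1 library gave 261 (without LY3214996 5) to 540 (without vehicle 4) lower, for this and the next 2 lists. Extracellular matrix genes were lower in 26 of 34, with a median of −0.22. The collagen genes Col15a1 (−0.74 ± 0.29) and Col6a2 (−0.63 ± 0.28) and thrombospondin Thbs1 (−0.73 ± 0.32) were lower at an unadjusted p under 0.05 (background 2.81%). Elastin (Eln, 0.65 ± 0.21) was higher. With 1 library left out the matrix median lay between −0.30 (without LY3214996 3) and −0.15 (without LY3214996 6), and 1 to 10 members were lower at that threshold. Heat shock genes were lower in 13 of 15, with a median of −0.24, and 1 of them passed (background 2.81%), the endoplasmic reticulum chaperone Hspa5 (−0.38 ± 0.15). With 1 library left out the count was 0 to 4 and the median −0.30 to −0.14, the latter without vehicle 5, where 0 passed. Interferon response genes had a median of 0.03, with −0.35 without LY3214996 and 0.28 with it. Within that list Isg15, a ubiquitin-like protein, differed by −0.93 and 0.04 in the sets without and with LY3214996. Psmb10, a subunit of the immunoproteasome, was lower by 0.30 ± 0.10.

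Among all tested genes, those with the smallest p had low to moderate expression. Bank1 (chr3:136053363-136326141), a B cell scaffold protein, had the smallest p of all (2.58e-05, edgeR adjusted p = 0.269, DESeq2 adjusted p = 0.00356). It ran from 2.68 to 6.61 CPM without abemaciclib (median 4.04) and from 0.901 to 4.02 CPM with it (median 2.09), and 8 libraries with the drug lay below all without it (−0.91 ± 0.18). Of 9 B and plasma cell markers, which include Bank1, 2 passed the count filter, both lower. Cklf, a chemokine-like factor, ran from 3.44 to 8.22 CPM and from 3.08 to 5.35 CPM (−0.57 ± 0.12), and the noncoding RNA BC039771 was lower by 0.75 ± 0.16. Prmt2, an arginine methyltransferase, ran from 29.9 to 41.5 CPM without the drug and from 22.8 to 34.8 CPM with it, with 8 libraries below all without it (−0.36 ± 0.08). The phosphatase gene Ptpn2 and Osgin2 were each lower by 0.28 ± 0.07. For these 6 genes, 12 of 12 libraries with abemaciclib were below the matched mean of log2 CPM.

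Among the higher genes, Tha1, a threonine aldolase, ran from 1.31 to 2.56 CPM without abemaciclib and from 1.98 to 4.52 CPM with it, and 9 libraries lay above all without it (0.65 ± 0.13, edgeR adjusted p = 0.269). Lrg1, a secreted glycoprotein of inflamed vessels, ran from 0.311 to 3.46 CPM and from 1.27 to 7.84 CPM, with medians of 0.947 and 4.06 CPM (1.64 ± 0.35). Lad1 (1.49 ± 0.34) and the endothelial gene Clca3a1 (1.29 ± 0.30) were higher as well. DESeq2 called 13 genes as risen: Fkbp5, Lrg1, Tha1, Hif3a, Clca3a1, Lad1, Cutc, Fmo2, Wnk4, Tef, Tmem252, Ciart and Prodh. It called Bank1, BC039771, Ptgds, Cklf and Prmt2 as fallen. In edgeR their adjusted p ran from 0.269 to 0.360. Hif3a, an inhibitory member of the hypoxia-inducible factors, had medians of 15.0 CPM without and 61.9 CPM with the drug (1.70 ± 0.42). Ptgds, the synthase of prostaglandin D, had medians of 17.98 and 2.96 CPM, with 7 of 12 libraries without abemaciclib above all with it and 1 below all with it (−2.30 ± 0.59). For Cutc, linked to copper homeostasis, 10 of 12 libraries with abemaciclib lay above all without it (0.51 ± 0.13).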

How the data were processed

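RNA from whole mouse sciatic nerve was sequenced in 24 libraries, 6 per treatment. Per the labels' protocols, RNA was purified on RNeasy columns, and libraries were made with the KAPA RNA HyperPrep kit after ribosomal RNA removal, while the molecule label reads polyA RNA. The authors deposited whole-number counts of reads per gene for 24421 genes. Per the submitters' processing notes, FastQC, STAR, DESeq2 and the build mm10 were used, and for the counting program, annotation, strand and versions the entry is: not given in the sources used here.

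Groups were taken from the treatment label, and replicate numbers only name samples. Analysis used edgeR 4.0.16 under R 4.3.3. Low genes were removed with filterByExpr (minimum count 10, minimum total 15), which kept 15385 genes and at least 98.6% of each library's counts, and libraries were scaled by TMM. A robust quasi-likelihood model had a term for abemaciclib and a term for LY3214996 (21 residual degrees of freedom, biological coefficient of variation 36.6%). All tests were two-sided, with Benjamini-Hochberg adjustment over the tested genes. A model with a mean per group gave the effects without and with LY3214996 and their difference. Levels per library are TMM-scaled CPM, and log2 CPM used a prior count of 2. Intervals are 95% intervals of the fit. Within groups, 60 pairs of libraries had a chi-square per degree of freedom of at least 19.8, so none was a repeat of another. The fit was tested on simulated data.

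The 44 gene lists, with 779 members, and the comparison itself were chosen with earlier results of these data known. Named genes were a set of cell cycle, lipid and other genes (Fkbp5, Isg15), the 6 with the smallest p in each direction, because 0 passed the adjusted threshold, and the member with the smallest p of each list and direction, without sex-linked, immunoglobulin, predicted and pseudogene entries. Other members, chiefly those with an unadjusted p under 0.05 and the genes called by DESeq2, were named after their values were seen. The results of 2 genes are not reported here. Alternatives were DESeq2 1.42.0, limma-voom (limma 3.58.1), other scalings and filters, other terms, and leaving out libraries. RefSeq promoter windows of GRCm38.p6 were searched over 250 bases before the start, and printed stretches leave out annotated exons. For a gene with several windows, the window with the most marked elements was printed.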

Additional observations from a re-analysis of the deposited data

Results flagged for a closer look

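Single libraries far from the other 5 of their group were found in 5 of 104 groups of 6 values tested by Dixon's criterion, and chance alone is expected to mark about 1 in 20 groups. Arntl, the clock activator, stood at 2.12 log2 CPM in abemaciclib 4, where the other 5 libraries lay between 3.60 and 4.17, and the same library had the lowest Fkbp5 and Zbtb16 levels with abemaciclib. Ciart, the clock repressor, stood at 1.10 log2 CPM in combination 4, against 2.17 to 2.73 in the rest of the group. Dgat2, the triglyceride enzyme, stood at 2.49 log2 CPM in LY3214996 1, against 3.65 to 4.12. The mean level of the adipocyte list was 2.04 log2 CPM in combination 4, against 2.89 to 3.39. For the ERK output list it was 5.16 log2 CPM in vehicle 1, a library low in neuron genes, against 4.71 to 4.82.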

How the results depend on the processing

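The count of 0 genes at an adjusted p of 0.05 for the main effect held in 42 edgeR settings and in limma-voom. Each of the 24 libraries left out in turn was among them (range 0 to 0). The fit without abemaciclib 2 is counted more than once in these settings and in the gene values below. DESeq2 called 13 higher and 5 lower. DESeq2 called 30 genes without LY3214996, 35 on top of it and 51 for the difference, where edgeR called 0 of each. Limma-voom called 6 on top of LY3214996, and edgeR with no count filter called 1 without it. Leaving out single libraries gave 0 to 3 genes without LY3214996 (1 without vehicle 1, 3 without LY3214996 1 and 2 without LY3214996 3), 0 to 1 on top of it (LY3214996 3) and 0 to 1 for the difference (LY3214996 1). The causes were not tested. The split at an unadjusted p under 0.05, 727 higher and 433 lower, became 750 and 862 in limma-voom, 514 and 556 with the neuron level as a covariate, and 224 and 280 without the 6 libraries low in neuron genes. Among 8353 gene values under alternatives, 1 changed sign from a value past an unadjusted p of 0.05, Plin1 at −0.023 with the adipocyte level as a covariate, a fit in which Plin1 is part of the covariate. No paired analysis was possible because the labels give no replicate numbers. Most mitotic genes lie near or under 10 CPM, where counting error limits them in the shallowest library.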

Other observations

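The remaining lists are given by their counts, to be read against 4.73% of all tested genes higher and 2.81% lower at an unadjusted p under 0.05. Of 18 tested genes of the integrated stress response 8 were higher, with a median of −0.03, and Ppp1r15a, a stress-induced phosphatase subunit, was higher by 0.43 ± 0.17. Of 18 genes of the NRF2 and xenobiotic response 12 were higher, with a median of 0.04 (0.11 without LY3214996, −0.19 with it). At an unadjusted p under 0.05, 3 of these 18 were higher, and 6 had a difference between the sets (3.69% of all tested genes). TGF-beta genes had a median of 0.04, and the inhibitory Smads Smad6 (0.45 ± 0.17) and Smad7 (0.40 ± 0.15) were higher at an unadjusted p under 0.05. Genes from RAS to ERK had a median of −0.03 with 14 of 23 lower, and receptor tyrosine kinases and their ligands 0.00 with 14 of 28 lower. Of 26 lysosome genes 18 were lower, with a median of −0.02 and 0 past an unadjusted p of 0.05.

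Genes of a senescent secretory phenotype had a median of 0.02 over 17 tested members, and the chemokine Ccl2, a monocyte attractant, was the only one past an unadjusted p of 0.05 (−1.04 ± 0.42). In the chemokine list Ccl24 was lower by 0.73 ± 0.27, below 2 CPM in all libraries, and Cxcl12 higher by 0.38 ± 0.18. MHC class I genes had a median of 0.01, with −0.21 and 2 of 14 higher without LY3214996, and 0.19 and 11 of 14 higher with it. MHC class II genes had a median of −0.05. Glul, which makes glutamine and marks satellite glia and other cells, ran from 168 to 447 CPM without abemaciclib and from 211 to 631 CPM with it (0.62 ± 0.17, edgeR adjusted p = 0.360). Among fibroblast markers 9 of 13 were higher, with a median of 0.10, and Dpt (1.18 ± 0.40), Sfrp4 (0.52 ± 0.23) and Ly6c1 (0.56 ± 0.19) passed an unadjusted p of 0.05. Ucp1, the uncoupling protein of thermogenic fat, was at or near 0 in most libraries and reached 25.8 CPM in 1 library with abemaciclib.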
